A study of Mus musculus with 2 samples.

Results

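The integrated stress response was followed through 10 genes in newborn mouse lens, labelled as control or as lens-specific knockout of the forkhead transcription factor Foxp1. The genes were Chac1, Trib3, Ddit3, Atf3, Ppp1r15a, Gdf15, Sesn2, Atf4, Atf5 and Asns. They were chosen by gene name with the processed signals of this same comparison in view, in particular the high knockout signals of Chac1, Trib3 and Gdf15, so their differences below are descriptions and carry no test. All their probes were found by transcript accession. The 10 genes are part of 20655 genes that could be named on the array, and all 10 were above background on both arrays.

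The series held 2 samples, 1 control lens RNA and 1 RNA from lenses labelled as lens-specific Foxp1 knockout, both taken at postnatal day 0 and hybridised to Agilent 1-colour mouse arrays. The labels call the control genotype wild-type and describe both samples as C57BL/6 mixed background. The treatment text Foxp1-flox/flox; Pax6-L-Cre stands on both samples, so the genotypes were taken from the source and genotype labels. The labels do not say how many mice or lenses went into each RNA, which exons were removed, or in which cells besides the lens the Cre was active. With 1 array per genotype no test across animals was possible, and every difference below is a difference between these arrays. The arrays lay on the same slide at different positions, so genotype and slide position cannot be told apart.

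The integrated stress response is a pathway that slows protein synthesis when a cell runs short of amino acids, misfolds protein in the endoplasmic reticulum, lacks haem or senses viral RNA. Kinases specific to each of these stresses phosphorylate the translation factor eIF2 alpha, and the messenger RNA of ATF4 is then translated better through its upstream reading frames. ATF4 is therefore governed largely at translation, and its activity is usually read from its targets. Those targets include genes for amino acid supply, such as Asns, and genes that end the response or damage the cell, such as Ppp1r15a, Ddit3, Trib3 and Chac1. ATF4 binds with C/EBP partners to composite elements in target promoters. In the lens, a tissue that makes very large amounts of crystallin protein and depends on glutathione to stay clear, this pathway has been studied in models of cataract.

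The sequence just upstream of the RefSeq start is shown for 5 members, the 3 whose signal was at least 2-fold higher and whose table entry has a single start (Chac1, Ppp1r15a and Trib3) and the other two that hold a searched motif (Atf3 and Asns). Each run is the 250 bases before the start, read 5′ to 3′ on the strand of the gene, from the RefSeq promoter table of build GRCm38.p6. Chac1 lies at chr2:119350992-119351241 on the plus strand. On the minus strand, Ppp1r15a lies at chr7:45526269-45526518, Trib3 at chr2:152344061-152344310, Atf3 at chr1:191183334-191183583 and Asns at chr6:7693210-7693459. Capitals mark a match to a searched motif on either strand.
Chac1: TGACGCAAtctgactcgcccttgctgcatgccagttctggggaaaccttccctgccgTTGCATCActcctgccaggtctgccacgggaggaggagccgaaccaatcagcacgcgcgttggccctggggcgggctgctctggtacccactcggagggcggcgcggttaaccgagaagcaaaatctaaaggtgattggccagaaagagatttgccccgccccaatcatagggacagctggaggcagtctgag
Ppp1r15a: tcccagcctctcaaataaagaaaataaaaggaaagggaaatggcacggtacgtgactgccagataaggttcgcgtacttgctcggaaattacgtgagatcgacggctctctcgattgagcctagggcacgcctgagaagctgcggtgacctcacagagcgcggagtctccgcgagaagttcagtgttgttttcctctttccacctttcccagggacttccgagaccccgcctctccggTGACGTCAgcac
Trib3: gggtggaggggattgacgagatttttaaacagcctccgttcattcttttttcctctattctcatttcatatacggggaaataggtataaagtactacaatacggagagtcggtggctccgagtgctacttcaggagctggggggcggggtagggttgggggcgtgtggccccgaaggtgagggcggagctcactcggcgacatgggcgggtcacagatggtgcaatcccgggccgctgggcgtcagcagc
Atf3: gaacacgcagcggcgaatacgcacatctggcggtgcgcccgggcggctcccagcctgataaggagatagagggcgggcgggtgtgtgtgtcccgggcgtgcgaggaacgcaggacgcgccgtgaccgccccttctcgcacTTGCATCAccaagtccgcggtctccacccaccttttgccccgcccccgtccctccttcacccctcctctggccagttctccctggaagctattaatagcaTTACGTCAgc
Asns: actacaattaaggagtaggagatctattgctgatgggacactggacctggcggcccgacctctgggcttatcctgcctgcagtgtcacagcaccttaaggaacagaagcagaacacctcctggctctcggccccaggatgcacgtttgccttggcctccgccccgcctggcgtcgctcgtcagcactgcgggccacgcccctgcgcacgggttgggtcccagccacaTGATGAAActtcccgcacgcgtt

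The motifs searched were TGATGNAA, the core of the composite C/EBP and ATF element, its variant TGACGNAA, and TGACGTCA, the palindromic cAMP response element that many ATF factors bind. Both strands were searched, no matches overlapped, and the palindrome was counted once. In Chac1 the first 8 letters of the window were TGACGCAA, and TTGCATCA, the composite core on the opposite strand, stood at bases 193 to 186 before the start. In Atf3 the composite core stood at bases 110 to 103 and the variant, as TTACGTCA, at bases 10 to 3. Asns carried TGATGAAA at bases 23 to 16, and Ppp1r15a carried TGACGTCA at bases 12 to 5. The Trib3 window held no match. Any of the motifs was found in 4 of the 12 windows of the 10 members, and in 6.26% of all 32851 windows of that length. The separate shares over all windows were 3.45% for TGATGNAA, 1.39% for TGACGNAA and 1.55% for TGACGTCA. The matches fell on both kinds of member, in 2 of the 4 genes with at least 2-fold higher signal and in 2 of the 6 without. A match describes these letters and is not evidence of binding.

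Of the 10 members, 4 had at least 2-fold more signal in the knockout lens, namely Chac1, Trib3, Gdf15 and Ppp1r15a, and 0 were at least 2-fold lower. Among all 14254 genes measured on both arrays, 1.02% were at least 2-fold higher and 5.86% at least 2-fold lower. The share of higher genes was 0.842% at or above the median signal, where Chac1 and Ppp1r15a lie, and 1.21% below it, where Trib3 and Gdf15 lie. Of the members 9 lay above 0, as did 50.9% of all measured genes. Since the members were chosen with part of these differences known, nothing is read from that contrast. The median difference was 0.45 over the members and 0.006 over all measured genes, on the log2 scale as knockout minus control. The called genes belong to the downstream, effector side of the pathway. ATF4 itself, ATF5 and asparagine synthetase stayed within the 2-fold limits. The lowest difference beyond the limit was 1.56 for Ppp1r15a, and the highest within it was 0.51 for Atf3. Under another background correction, normexp, this gap was narrower, with Gdf15 at 1.05 and Atf5 at 0.48.

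Signals are the scanner software's processed intensities after background subtraction, and each log2 difference was taken after scaling each array to its own 75th percentile. That percentile was 283 (control) and 279.9 (knockout), while the array medians were 50.2 and 23.6. Dim spots therefore read lower on the knockout array, and 11.3% of the genes below the median signal were at least 2-fold lower there, against 0.393% of the genes above it. Errors given after ± are the SD of a spot difference, estimated from 281 probes printed at least 5 times, at the signal of the gene. For genes with several measured probes, these errors are divided by the square root of the number of probes. They cover spot noise only, not differences between probes of a gene, mice, dissections or labelling reactions. The scanner software's own signal errors, combined over both arrays, were larger for every member probe. On the log2 scale they ran from 0.20, as for Atf5, to 0.26 for Gdf15. All 3 probes of Foxp1 were lower in the knockout lens, at differences of -1.84, -1.82 and -1.33. In RNA from whole lenses, fewer cells of a type and less RNA per cell cannot be told apart.

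**Figure D1:**
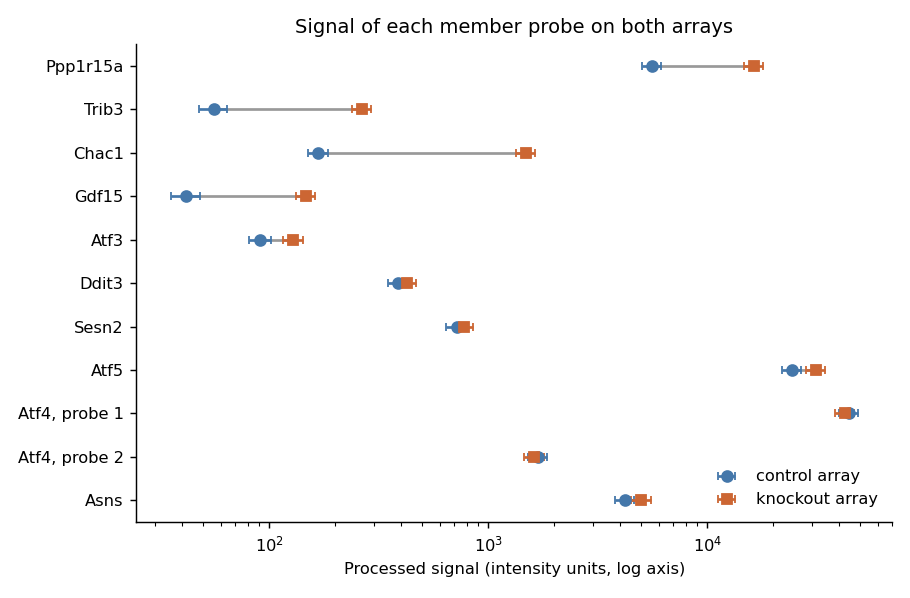
Processed signal of each member probe (horizontal log axis, intensity units) on the control array (circles) and the knockout array (squares), with bars for the error that the scanner software gives for each spot. Chac1, Trib3, Gdf15 and Ppp1r15a are widely separated, whereas both Atf4 probes nearly coincide; signals of different probes are not comparable with each other.

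The messenger RNA of ATF4, the central transcription factor of the response, was nearly equal on the arrays. Its brighter probe read 44372 in control lens and 42617 in knockout lens. Its other probe read 1692 and 1626. The probes had differences of -0.045 and -0.044, and their mean was -0.04 ± 0.06. Both probes agreed to within spot noise, and Atf4 was the one member below 0. ATF5, a related factor that is likewise governed at translation, read 24308 and 31473, a difference of 0.39 ± 0.08. Among the 500 genes nearest to Atf5 in signal, 19 were as high or higher.

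Ppp1r15a encodes GADD34, which brings protein phosphatase 1 to eIF2 alpha and so restores translation. Its probe read 5602 in control lens and 16316 in knockout lens. That is 2.94-fold higher, a difference of 1.56 ± 0.08. None (0) of the 500 genes nearest to it in signal was as high, and only 1 of them reached 2-fold higher. The spot lay far above background on both arrays. The raw spot medians were 5015 and 15772 over local backgrounds of 31 and 28. Its constitutive paralog Ppp1r15b, the other eIF2 alpha phosphatase subunit, was dim and read 81.1 and 72.9, a difference of -0.14 ± 0.23.

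Trib3 encodes a pseudokinase that is induced by ATF4 and CHOP and dampens ATF4 in return. Its probe read 56.1 in control lens and 265 in knockout lens. The knockout signal was 4.78-fold higher, a difference of 2.26 ± 0.18. Of the 500 genes nearest in signal 2 were as high, and their median difference was -0.14. Before background subtraction the spot medians were 100 and 262.5, over local backgrounds of 28 and 26. A spike-in RNA near the control brightness of Trib3 read 52.4 and 6.79 on the control and knockout arrays. Another, near its knockout brightness, read 280 and 266. Normexp correction of the raw spot medians gave 1.30. That setting adds 50 to each corrected signal, which by itself shrinks the log2 differences of dim spots. The paralog Trib2 read 298 and 601, a difference of 1.03 ± 0.12 that did not survive every setting. Its raw spot medians were only 285 and 349, normexp correction gave 0.34, and quantile normalization gave 0.99. A further Trib2 probe was not well above background. Trib1 had a difference of 0.07.

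Chac1 encodes a gamma-glutamyl cyclotransferase that breaks down glutathione, the main antioxidant of the lens. Its probe read 168 in control lens and 1491 in knockout lens. The difference was 3.17 ± 0.12, or 8.99-fold, the highest of the members and rank 10 from the top among all measured genes. None (0) of the 500 genes nearest in signal was as high, and 8 of them reached 2-fold higher. The raw spot medians were 236 and 1679, each over a local background of 27. Its difference exceeded that of Atf4 by 3.21 and that of Asns by 2.90 on the log2 scale. The paralog Chac2, which turns glutathione over constitutively, read 210.3 and 209.9, a difference of 0.01 ± 0.15.

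Gdf15 encodes a secreted stress cytokine, a target of ATF4 and CHOP and also of p53. It was the member nearest to background, with a processed signal of 41.8 in control lens and 147 in knockout lens. The difference was 1.83 ± 0.23, or 3.56-fold. Of the 500 genes nearest in signal 1 was as high, 7 reached 2-fold higher and 34 were at least 2-fold lower. The raw spot medians were 87 and 184.5 over local backgrounds of 32 and 29. The scanner software gave its control signal an error of 15.1%, against 10.2% on the knockout array. Its size depended on the setting, and normexp correction of the raw spot medians, with its added 50, gave 1.05.

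Ddit3, Atf3 and Sesn2, the other three effectors, lay between the 2-fold limits. Ddit3 encodes CHOP, the transcription factor that promotes death under lasting endoplasmic reticulum stress. It read 388 and 426, a difference of 0.15 ± 0.12, and 190 of the 500 genes nearest in signal were as high. Atf3, a stress-inducible ATF family repressor and activator, read 91.3 and 129, a difference of 0.51 ± 0.19. Of its 500 nearest genes 39 were as high, and a spike-in RNA of like control brightness read 80.2 and 38.0. Sesn2, a leucine sensor that restrains mTORC1 and is shared with the p53 response, read 717 and 778, a difference of 0.13 ± 0.12. Its paralogs Sesn1 and Sesn3 had differences of 0.29 ± 0.08 and -0.19 ± 0.10.

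The effectors did not move as a block. Over the 7 effectors the differences ran from 0.13 to 3.17, with an SD of 1.16 over genes and a median of 1.56. The difference of Trib3, which is classed as a target of CHOP, exceeded that of Ddit3 by 2.11. Under normexp correction Trib3 stood at 1.30 and Ddit3 at 0.16. The arrays do not measure CHOP protein, and a link between these genes was not tested. Ppp1r15a exceeded Ddit3 by 1.41.

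**Figure D2:**
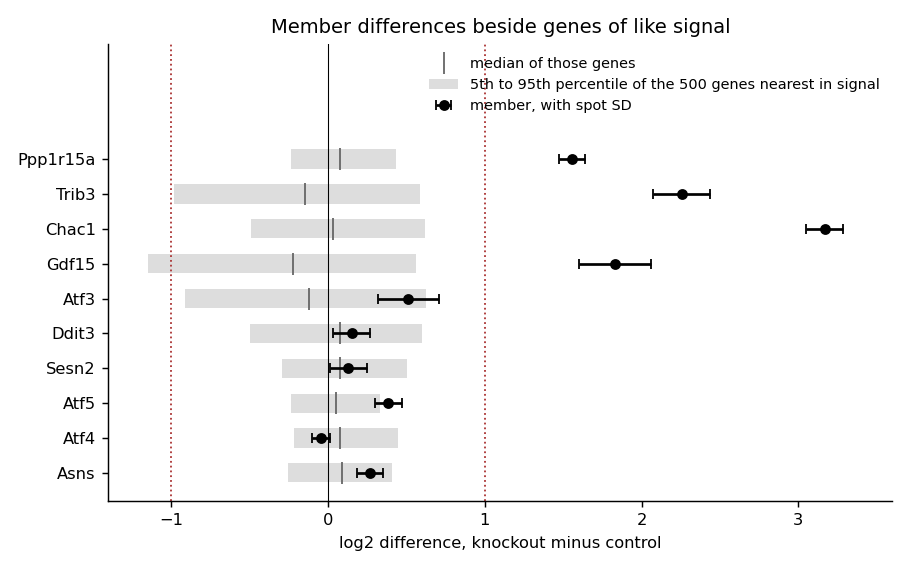
Points give the log2 difference of each member (horizontal axis, knockout minus control). Their error bars are the spot SD, for Atf4 divided by the square root of its number of probes. Grey bars and ticks give the 5th to 95th percentile and the median of the 500 genes nearest to each member in signal. Dotted lines mark 2-fold; Chac1, Trib3, Gdf15 and Ppp1r15a lie beyond the upper line and outside their grey bars, Atf5 (0.39) lies just outside its bar, and the other five lie inside.

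Asns, the member for amino acid supply, makes asparagine and is a standard reporter of amino acid shortage. It read 4193 in control lens and 5007 in knockout lens, a difference of 0.27 ± 0.08. Of the 500 genes nearest in signal 76 were as high. Their median difference was 0.09.

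**Figure D3:**
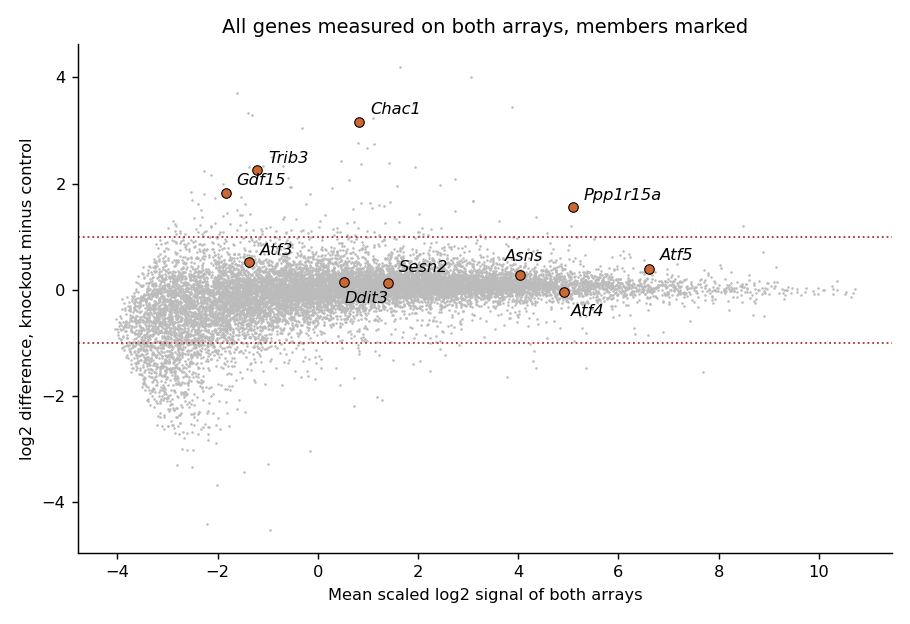
Log2 difference (vertical axis, knockout minus control) against mean scaled log2 signal (horizontal axis) for the 14254 genes measured on both arrays, with the members marked. Dim genes spread below 0, whereas Trib3 (2.26) and Gdf15 (1.83) lie above the upper dotted 2-fold line at low signal and Ppp1r15a (1.56) lies above it at high signal.

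Upstream of ATF4, the 4 kinases that phosphorylate eIF2 alpha were measured with 1 probe each. Eif2ak3, which encodes PERK, the kinase of endoplasmic reticulum stress, read 166 and 209, a difference of 0.35 ± 0.15. Eif2ak2, the double-stranded RNA kinase PKR, was dim at 46.7 and 77.4, a difference of 0.74 ± 0.26. The amino acid sensor Eif2ak4 (GCN2) and the haem-regulated kinase Eif2ak1 (HRI) had differences of 0.05 ± 0.12 and -0.01 ± 0.13. The kinases act through phosphorylation, which the arrays do not measure. Of all 19 measured genes of eIF2, its kinases and its regulators, 0 were at least 2-fold higher and 1 was lower. The shares over all measured genes were 1.02% and 5.86%, and the list median was 0.05. The lower gene was Impact, an inhibitor of GCN2 activation, and its probes disagreed, at 0.12 for the bright probe and -2.66 for a dim one that read 80.6 and 12.6. Eif2s1, the phosphorylated subunit itself, had a difference of 0.34 ± 0.07, from probes at 0.20 and 0.48. Nck1, an adaptor at the eIF2 phosphatase, had a difference of -0.38 ± 0.12. Dele1, the messenger from mitochondria to HRI, and Eif2b1, a subunit of the eIF2 exchange factor, had differences of 0.19 and 0.17.

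Factors that pair with ATF4 or act beside it lay between the limits, 9 of 9 measured of 12, with a median of 0.08. Over all measured genes 1.02% were at least 2-fold higher and 5.86% at least 2-fold lower. Cebpb and Cebpg, common dimer partners of ATF4, read -0.14 ± 0.27 and -0.01 ± 0.16. The antioxidant factor Nfe2l2 (NRF2) had the highest difference, 0.49 ± 0.12, from 468 to 653. Batf3, Nfe2l1 and Jun had differences of 0.21, 0.18 and 0.08. Cebpa, Crebrf and Fosl1 were above background on neither array.

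Other targets of the response were listed from general knowledge, and 21 of 24 were measured. Of these 1 was at least 2-fold higher and 2 were at least 2-fold lower, against 1.02% and 5.86% of all measured genes. The list median was 0.21. The higher gene was Cdkn1a, the cyclin-dependent kinase inhibitor p21, whose probes disagreed. The probe printed in 9 spots read 106 and 692, a difference of 2.72 ± 0.13 (SD over 9 spots), and its other probe read 35.1 and 37.1. The lower genes, Soat2, a cholesterol esterifying enzyme, and Kdm7a, a histone demethylase, were dim at control signals of 75.2 and 82.8, with differences of -1.10 and -1.05. Both fell inside the limits after loess, at -0.54 and -0.50. Ndrg1, a stress and differentiation gene, had a difference of -0.58 at 59877 and 39597. Ddit4, an inhibitor of mTORC1, the death receptor Tnfrsf10b and the translation repressor Eif4ebp1 had differences of 0.36, 0.32 and 0.31. Fgf21, a secreted target often measured beside Gdf15, was above background on neither array, and Adm2 was above background on the control array only.

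Genes for amino acid supply and tRNA charging, listed by function, passed 2-fold in 1 gene, a transporter. For amino acid synthesis, 0 of 13 measured genes passed 2-fold in either direction. Of these genes 10 lay above 0, against 50.9% of all measured genes. The list median was 0.20, against 0.006 over all genes. After subtracting the median of genes of like signal, the list median was 0.09. Mthfd2 of mitochondrial folate metabolism and Phgdh, the entry enzyme of serine synthesis, had differences of 0.39 and 0.27. Glutamine synthetase, Glul, and Mthfd1l had differences of 0.28 and 0.27. None (0) of 21 genes for tRNA synthetases and tRNA export passed 2-fold in either direction, with a median of 0.06 and a range from -0.30 to 0.41. Hars, Nars, Tars and Lars were highest among those bright enough to be named, at 0.41, 0.35, 0.24 and 0.24. Amino acid transporters had a median of -0.004, with 1 of 14 at least 2-fold higher and 0 lower. That gene, Slc7a3, a carrier of cationic amino acids, read 25.9 and 92.2, which is 3.59-fold higher at a dim signal, a difference of 1.84 ± 0.28. Normexp correction, with its added 50, placed it inside the limits at 0.92. Slc7a11, the cystine carrier that feeds glutathione synthesis and a standard ATF4 target, read 131 and 98.2, a difference of -0.40 ± 0.19. Slc6a9, Slc7a1, Slc38a2 and Slc7a5 had differences of -0.33, 0.22, 0.19 and 0.08. Over these lists of other targets, synthesis, transport and tRNA charging together, 2 of 69 measured genes were at least 2-fold higher and 2 were lower, or 2.90% higher against 1.02% higher and 5.86% lower over all genes. The median was 0.10, and 1 of the 69 reached the difference of Ppp1r15a.

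**Figure D4:**
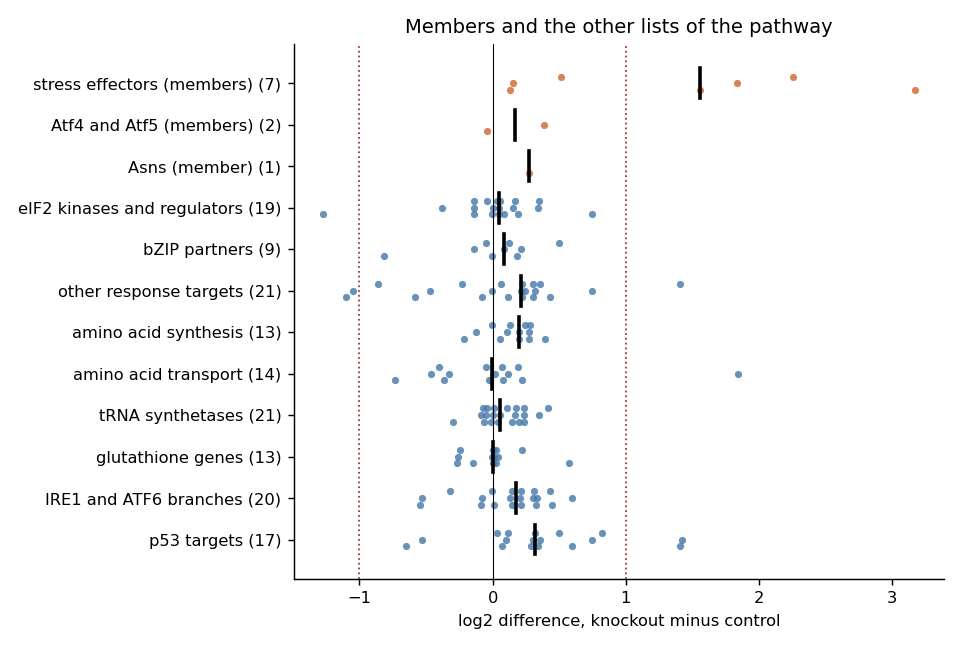
Log2 difference (horizontal axis, knockout minus control) of each measured gene, by list, with the number measured in brackets; black bars are list medians and dotted lines mark 2-fold. The effector members, in part chosen with their high knockout signals in view, spread from 0.13 to 3.17 with a median of 1.56. The medians of the other lists drawn lie between -0.004 and 0.32, and nothing is read from that contrast.

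Glutathione genes around Chac1 did not pass 2-fold (0 of 13 measured), with a median of 0.005. Over all measured genes 1.02% were at least 2-fold higher and 5.86% at least 2-fold lower. Gclc, the catalytic subunit that limits glutathione synthesis, read 2529 and 2117, a difference of -0.24 ± 0.10. Gsr, glutathione reductase, had a difference of 0.22, from probes at -0.05 and 0.49. Gpx4, which uses glutathione to reduce lipid peroxides, had a difference of -0.14 ± 0.08. Oplah, which opens the 5-oxoproline that Chac1 releases, and Ggct, another gamma-glutamyl cyclotransferase, had differences of 0.03 and 0.005. The other branches of the unfolded protein response, through IRE1 and ATF6, held 0 of 20 genes beyond 2-fold. Of these genes 14 lay above 0, against 50.9% of all measured genes. The list median was 0.18, or 0.12 after subtracting the median of genes of like signal. Herpud1, a factor of protein degradation at the endoplasmic reticulum, had a difference of 0.60 ± 0.09, the highest of that list. Creb3, Sdf2l1 and Manf had differences of 0.44, 0.43 and 0.33, and the chaperone Hspa5 (BiP) read 10767 and 13383, a difference of 0.33 ± 0.08.

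Genes with a pattern like that of Chac1 were sought by the distance between scaled log2 signals over the 2 arrays. The nearest were the predicted gene Gm1987, the TNF family ligand Tnfsf9 and the fibroblast growth factor homologue Fgf12, at distances of 0.28, 0.38 and 0.41. None of them is a listed member of the stress response. Their differences were 2.77, 3.24 and 2.66. With 2 arrays this likeness says only that the signals lie close together.

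Lens markers were measured in full, 14 of 14, and none passed 2-fold (0 in either direction), with a median of -0.02 and a summed signal of 3433396 in control lens and 3379128 in knockout lens. Markers of other cells that a dissected lens can carry are given beside the shares over all measured genes, 50.9% above 0, 1.02% at least 2-fold higher and 5.86% at least 2-fold lower. Retina and neuron markers, 13 of 13 measured, had 11 above 0, 1 at least 2-fold higher and a median of 0.46, with summed signals of 13438 and 17350. Mesenchyme markers, 5 of 8 measured, had 2 at least 2-fold higher, with summed signals of 1114 and 1437; Dcn and Lum were above background on the knockout array only. Vessel, macrophage, pigment and erythroid markers had medians of -0.13, -0.12, -0.39 and -0.30, and their summed signals were lower on the knockout array. The vessel marker Emcn and the macrophage marker Ptprc were at least 2-fold lower, at -1.12 and -1.06. Both were dim, and genes of like signal had median differences of -0.55 and -0.60. No other measured gene of these 4 lists passed 2-fold (0 higher). Above 0 lay 2 of 8 vessel markers, with Tek highest at 0.86, and 1 of 8 macrophage markers, Cx3cr1 at 0.53. The pigment and erythroid lists had 0 above 0. The macrophage marker Mrc1 was above background on the knockout array only. The summed signals of the retina and mesenchyme markers were higher on the knockout array, as were Chac1, Trib3, Gdf15 and Ppp1r15a, and the part of these markers in the differences of the members was not tested.

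The choice of scaling set the level of all differences. Chac1 was the highest member under each setting run, but under normexp Ppp1r15a (1.69) stood above Trib3 (1.30) and Gdf15 (1.05). Scaling by array medians raised every gene by 1.08, placed all 10 members beyond 2-fold and called 61.2% of all genes higher, so differences are best read relative to the median of all genes. Relative to it, Chac1 ranged from 2.76 to 3.33 over all settings tried, Trib3 from 1.29 to 2.68, Gdf15 from 1.03 to 2.47 and Ppp1r15a from 1.43 to 1.72. The range of Ppp1r15a was the narrowest of these. Atf4 ranged from -0.17 to 0.12 and Sesn2 from -0.009 to 0.29, so neither has a settled direction. The upper ends for Chac1, Ppp1r15a, Atf4 and Sesn2 came from dropping the dim filter. The members did not change there, but the reference became the median of 20655 genes, -0.16. Atf4 was also above the all-gene median under normexp, by 0.04.

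**Figure D5:**
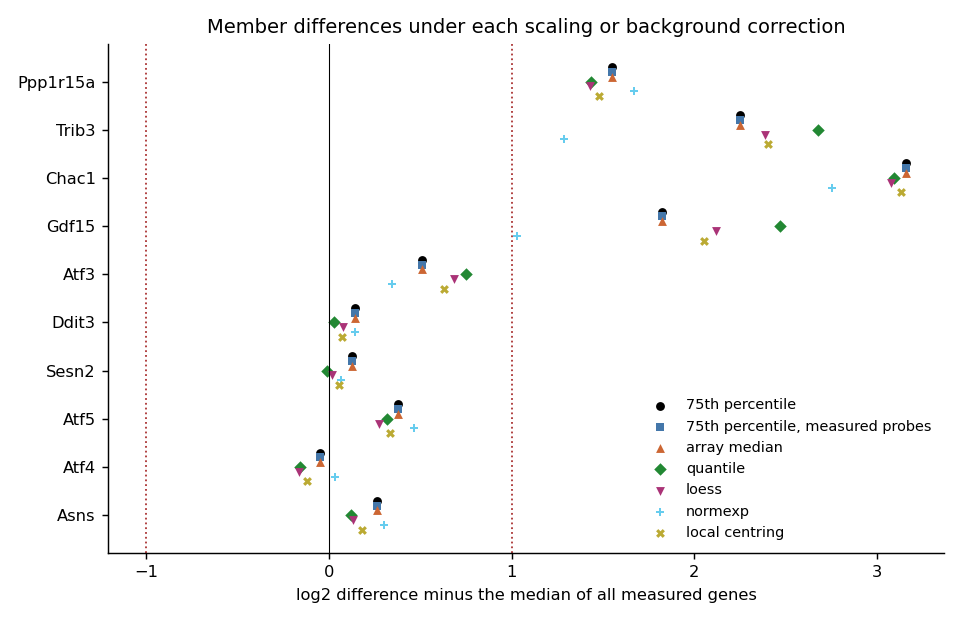
Log2 difference of each member minus the median of all measured genes (horizontal axis) under 7 ways of scaling or background correction (symbols). Chac1, Trib3, Gdf15 and Ppp1r15a lie above the dotted 2-fold line under each of these, with Gdf15 at 1.03 under normexp, whereas Atf4 changes side of 0.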

How the data were processed

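Total RNA of 2 lens samples was measured on 1 Agilent mouse array each. The values are intensities of single spots, deposited by the authors as scanner output. Per the file headers, Agilent Feature Extraction 10.7.3.1 extracted them, at a scan resolution of 3 microns, on a probe layout annotated to mm9. The processed signal is the intensity after that software's background subtraction, and the yes or no flags are other values the authors deposited.

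Control spots were set aside, as were 263 spots that either array flagged as outliers. Log2 processed signals minus the 75th percentile of the array were averaged over the spots of a probe. A probe was measured where each array called over 50% of its spots well above background. Gene differences are means over measured probes, knockout minus control. Probes were named by RefSeq accession through the GRCm38.p6 table (27225 of 55655 probes). A difference of 2-fold was the size rule, in place of a test. Members and lists were chosen with earlier results of these data known. Named list genes are all those beyond 2-fold and up to 4 further genes with the largest differences and a signal at or above the median on the brighter array, besides members, kinases, paralogs and a few standard genes added after their values were seen (Cebpb, Cebpg, Slc7a11, Ggct, Hspa5 and genes not above background). Python 3.11.15 and limma 3.58.1 in R 4.3.3 were used. The 2-fold rule was also run on simulated signals with spot noise. That simulation left out array scaling, background subtraction, the dim filter and the lower reading of dim spots on the knockout array. Alternatives covered scaling, background correction, the dim filter, probe choice and flags. Precision is limited by the number of arrays.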

Additional observations from a re-analysis of the deposited data

How the results depend on the processing

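The count of 4 members at least 2-fold higher, and which members these were, held under 8 of the 9 alternatives run, and the count of 0 lower members under all 9. Some of these alternatives could not change the counts. Keeping outlier spots and dropping the dim filter left every member as it was, since 0 member spots were flagged and all 10 members were measured. Taking the brightest probe touched only Atf4, whose probes differed little. Scaling by array medians gave 10 higher members, a member median of 1.53 and an effector median of 2.63. Normexp correction, run on the raw spot medians and added after the data were seen, gave an effector median of 1.05. It adds 50 to each corrected signal, which by itself draws the log2 differences of dim spots towards 0. How much of the normexp shift came from the added 50 and how much from the background correction was not tested. Scaling by array medians moves every gene by 1.08. Of all calls over all genes, 85.1% were lower in the analysis reported, 1.14% with array medians, 23.0% with quantile normalization, 39.7% after loess, 57.9% after normexp and 61.3% after centring each gene on the 500 genes of nearest signal, also added later. Kdm7a turned to 0.0299 with array medians, and Impact to 0.12 with the brightest probe of each gene. Without a filter on dim probes 293 genes were higher and 4466 lower, against 146 and 835. The planned normexp on mean spot signals was not run, because the files used here hold spot medians. No paired analysis was possible because each genotype has 1 array and the labels give no replicate numbers. Trib3, Gdf15 and Atf3 lie below the median signal, where background subtraction weighs most.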

Other observations

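The transcription factor p53 shares Gdf15, Sesn2, Cdkn1a, Ddit4, Tnfrsf10b and Bbc3 as targets with the stress response. Bbc3 had a difference of 0.12. Of 17 measured p53 targets other than Gdf15 and Sesn2, 2 were at least 2-fold higher, 0 were at least 2-fold lower and 15 lay above 0. Over all measured genes 1.02% were at least 2-fold higher, 5.86% at least 2-fold lower and 50.9% above 0. The median was 0.32 over the p53 targets and 0.006 over all genes. After subtracting the median of genes of like signal, the median over the p53 targets was 0.26. Phlda3, an inhibitor of Akt, read 704 and 1865, a difference of 1.42 ± 0.12, or 2.68-fold. Cdkn1a passed 2-fold on the mean of probes that disagreed. Plk3, a stress kinase, Ccng1, a cyclin of the p53 response, and the death receptor Fas had differences of 0.75, 0.60 and 0.50. Mdm2, the ubiquitin ligase that restrains p53, read 3185 and 2186, a difference of -0.53 ± 0.10. The list was chosen with earlier results for p53 targets in these data known.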
